A study of Mus musculus with 36 samples.

Results

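Kinesins are motor proteins that walk along microtubules, and the members followed here were the genes whose symbol is Kif, a number and optional letters. That rule found 34 of the 32750 gene symbols in the deposited expression table, with symbols ending in -ps left out and the most abundant row kept for each symbol. By what they are known to do, the members were put into 11 mitotic kinesins, 12 transport kinesins, 5 kinesins of the cilium and 6 others. Kif1b, Kif1c, Kif5c and Kif24 were not analysed here. Of the 34 members, 25 reached 1 FPKM (fragments mapped to a gene, scaled by transcript length and by the size of the library) in at least 1 library, 9 stayed under 1 FPKM in every library, and 6 were at or above 1 FPKM in all 36 libraries.

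A kinesin motor domain burns ATP to step along a microtubule or to pull its end apart. Mitotic kinesins build the spindle, move chromosomes and organise the midzone on which a dividing cell is cut, and their genes are switched on in the later part of the cell cycle and silent in resting cells. Transport kinesins carry vesicles, mitochondria and other cargo and are used by dividing and resting cells alike. Heart muscle cells of the mouse divide around birth and largely leave the cell cycle soon after, and the newborn mouse heart is known for regrowing tissue after removal of the apex, an ability that is lost within days.

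The samples came from CD-1 mice, with no transgene or mutation named in the labels, and were of 3 kinds. Whole ventricular myocardium was taken at P0, P4 and P7 (days after birth) and from adults, and at 1 and 7 days after resection surgery or sham surgery, with 2 libraries in each of these 8 groups. Cardiomyocytes were isolated on Miltenyi columns at P4 and P0 and 7 days after resection or sham surgery, with 3 libraries in each of 4 groups. Dissociated adult cardiomyocytes in culture were sampled at 0, 24, 48 and 72 h, with 2 libraries at each of 4 times. The labels give neither the age at surgery nor the age of the adults, nor the number of mice behind a library. Whether replicates are separate animals is not stated, and each p-value then reflects only how these libraries scatter, which may be technical. The labels name 2 kinds of library preparation and 2 sequencers without saying which library got which, and these cannot be told apart from the groups here.

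Between 10454 and 13134 gene models were at or above 1 FPKM in a library, and the FPKM values of a library summed to between 422576 and 684130. The depth is unknown, since the table holds no counts. The labels call all samples cardiomyocytes, and 5 of 8 cardiomyocyte markers in the table summed to 2558 FPKM or more in every library. In the ventricles, 7 fibroblast markers summed to 377 to 1226 FPKM and 7 endothelial markers to 129 to 265 FPKM, so transcripts of other cells are present as well. In bulk RNA of this kind, fewer cells of a type and less RNA per cell cannot be told apart.

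Promoters of 6 members are shown because the mitotic and transport classes differ in how many members hold a short sequence near the start site. Cell cycle genes of the mouse often carry TTTGAA or TTCGAA (letters of the cell cycle genes homology region) near the start site, often with CCAAT upstream. In RefSeq promoter windows of 300 bases (250 before and 50 after the start site, GRCm38.p6), TTTGAA was found on either strand in 9 of 10 mitotic kinesins with a usable window (90.0%), in 1 of 8 transport kinesins (12.5%) and in 5466 of all 27025 genes (20.2%). TTCGAA was found in none of the 10 mitotic and none of the 8 transport kinesins, against 1.8% of all genes. CCAAT was found in 6 of 10 mitotic kinesins (60%), 2 of 8 transport kinesins (25%) and 41.1% of all genes, and no CCAAT match overlapped a TTTGAA match in the members. A TTTGAA beginning between -40 and 25 of the start site was found in 7 mitotic kinesins and in 4.06% of all genes, with these bounds set after the positions were seen. The match of the transport kinesin Kif1a, at -44, lay just outside them, and Kif26b, of the other class, had a match inside, at -9. Each line gives 80 bases before and 15 after the start site on the gene's strand, with TTTGAA and CCAAT on either strand in capitals (TTCAAA and ATTGG are their reverse complements).
Kif11 (chr19:37376302-37376396, plus strand): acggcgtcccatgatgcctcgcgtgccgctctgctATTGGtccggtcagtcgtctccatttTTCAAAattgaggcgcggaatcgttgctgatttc
Kif15 (chr9:122951001-122951095, plus strand): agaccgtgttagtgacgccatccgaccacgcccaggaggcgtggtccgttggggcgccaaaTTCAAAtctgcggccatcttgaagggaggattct
Kif18b (chr11:102925110-102925204, minus strand): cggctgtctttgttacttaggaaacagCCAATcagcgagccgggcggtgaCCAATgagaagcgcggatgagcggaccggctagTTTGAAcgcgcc
Kif23 (chr9:61946785-61946879, minus strand): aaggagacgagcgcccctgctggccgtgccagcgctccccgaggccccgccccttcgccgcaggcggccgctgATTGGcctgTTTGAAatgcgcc
Kif3c (chr12:3365052-3365146, plus strand): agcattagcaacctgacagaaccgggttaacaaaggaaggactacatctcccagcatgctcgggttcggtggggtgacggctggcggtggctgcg
Kif13a (chr13:46929704-46929798, minus strand): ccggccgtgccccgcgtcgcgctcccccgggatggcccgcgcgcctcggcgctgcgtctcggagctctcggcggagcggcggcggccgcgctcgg
The mitotic genes Kif11 and Kif15 share a TTTGAA match at -19, while Kif18b and Kif23 carry it just past the start site, at 4 and 3. The transport genes Kif3c and Kif13a hold neither motif in the stretch shown. A match is a description of these letters, and binding was not measured here.

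Across the 16 groups, the mitotic and transport kinesins moved over very different ranges. The 11 mitotic kinesins summed to between 1.07 and 84.4 FPKM in a library (median 28.6), and the 12 transport kinesins to between 41.1 and 178 FPKM (median 102). Mitotic transcripts made up 0.980% to 39.9% of the summed kinesin FPKM of a library. In unoperated ventricle the mitotic sum was 54.3 and 58.4 FPKM at P0, 61.3 and 84.4 FPKM at P4, 30.7 and 38.1 FPKM at P7 and 1.83 and 1.99 FPKM in adults. Both P4 libraries lay above both P0 libraries, both P7 libraries lay below them, and the adult libraries lay far below all others. The transport sum was 95.0 and 109.8 FPKM at P0, 103 and 108 FPKM at P4, 99.0 and 96.2 FPKM at P7 and 106 and 101 FPKM in adults, with overlapping values at all ages but P7 against P4 and against adults.

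Kif5b, the heavy chain of conventional kinesin-1, was the most abundant member, with a mean of 51.7 FPKM over the 36 libraries. It alone made up 15.6% to 57.4% of the summed kinesin FPKM of a library. It was followed by the endosome motor Kif13a (18.4 FPKM), the microtubule depolymerase Kif2a (10.8 FPKM) and the endosome motor Kif16b (8.11 FPKM). Among mitotic kinesins Kif20a, which brings the chromosomal passenger complex to the midzone, had the highest mean (5.90 FPKM), and Kif14, a cytokinesis kinesin, the lowest (0.605 FPKM). All 11 mitotic kinesins had their highest group mean in P4 ventricle, and each had its lowest in adult ventricle or in explants at 0, 24 or 48 h. Of the transport kinesins, Kif5b, Kif16b, Kif21a, Kif3b, Kif3c, Kif5a and Kif17 had their highest group mean in cultured explants. For Kif20a, the group means of P4 ventricle (14.3 ± 4.14 FPKM, SD, n = 2) and P0 ventricle (12.3 ± 1.87 FPKM, SD, n = 2) did not differ beyond their spread. Neither did those that came next, of day 7 (9.34 ± 1.57 FPKM, SD, n = 2) and day 1 resected ventricle (9.30 ± 1.65 FPKM, SD, n = 2). Isolated P4 cardiomyocytes lay at nearly the same level (9.30 ± 1.40 FPKM, SD, n = 3).

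**Figure D1:**
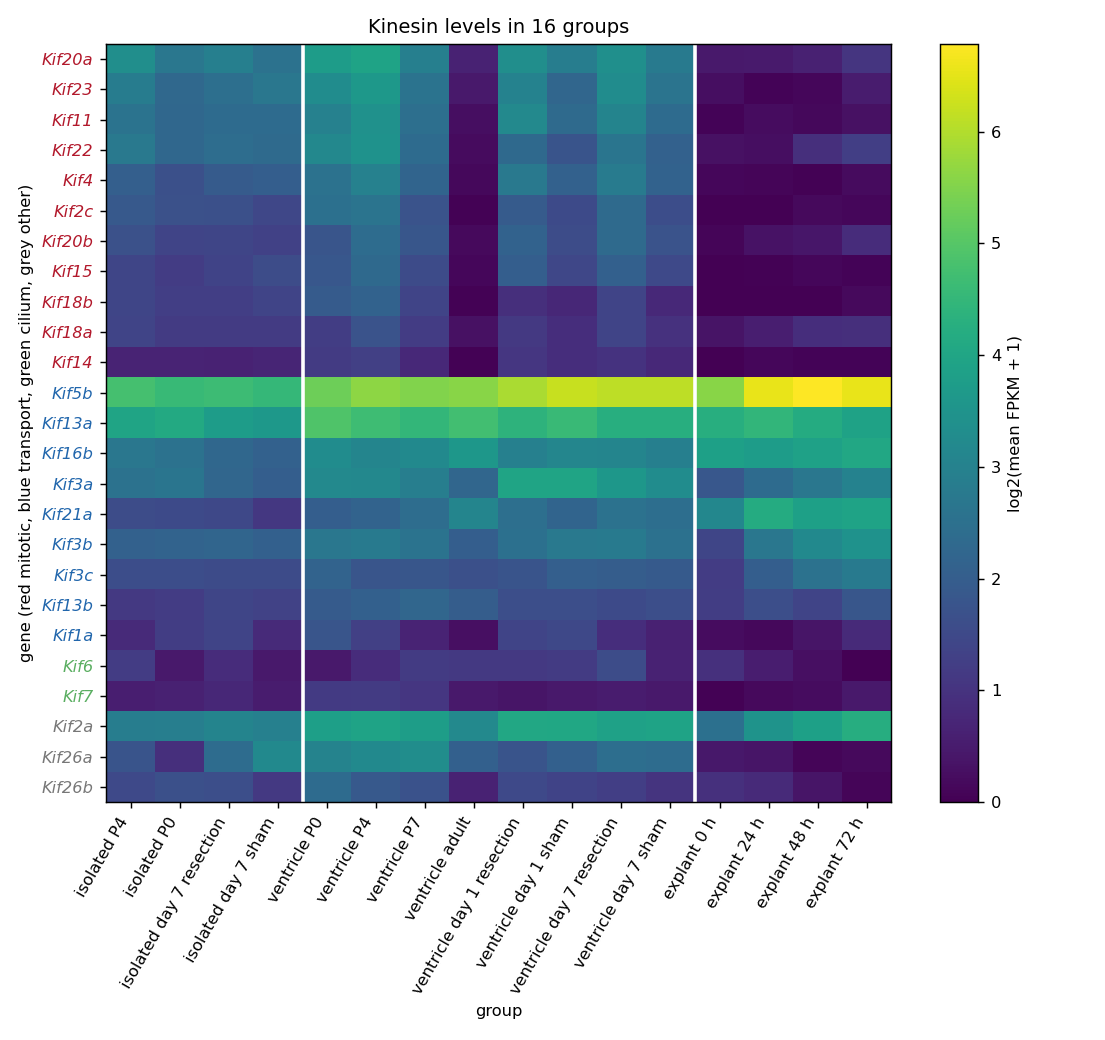
Group means of the 25 kinesins that reached 1 FPKM in at least 1 library, as log2(mean FPKM + 1), with genes in rows, coloured by class, and the 16 groups in columns, split by preparation. The mitotic genes are dark in adult ventricle and in explants and bright in P0 and P4 ventricle, while Kif5b is bright in all 16 groups.

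In adult ventricle all 11 mitotic kinesins were lower than in P0 ventricle. By limma on log2(FPKM + 1), with Benjamini-Hochberg adjustment over all 14306 rows tested and calls at an adjusted p under 0.05, 21 of the 25 kinesins tested were called, 2 higher and 19 lower, against 56.9% of all rows called (13.4% higher). All 11 mitotic kinesins fell, against 43.6% of all rows called lower. Their median log2 change was -2.43, or -4.24 with 0.1 FPKM added before the log instead of 1. On the main scale the smallest change was in Kif18a (-0.90), which steadies chromosomes at the spindle equator, and the largest in Kif20a (-3.09). The added 1 FPKM understates the change of low genes, so this order is not one of fold changes. The 9 transport kinesins tested had a median log2 change of -0.19, beside -0.36 for all rows. All 11 mitotic kinesins were under 1 FPKM in both adult libraries and passed the filter through younger ventricles. Of the 9 transport kinesins, Kif21a rose and Kif1a, Kif3a, Kif3b and Kif3c fell, a share of calls close to that of all rows.

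Kif11, the motor that pushes spindle poles apart, had 0.209 and 0.167 FPKM in adult ventricle, against 5.94 and 7.99 FPKM in P0 ventricle. Both adult libraries lay far below both P0 libraries, with a log2 change of -2.73 ± 0.20 (SE, limma adjusted p = 4.2e-07). The chromosome motor Kif22, also called Kid, had 0.156 and 0.153 FPKM in adult ventricle, against 8.68 and 7.36 FPKM in P0 ventricle, a log2 change of -2.96 ± 0.24 (SE, limma adjusted p = 7.4e-07). Its reads may be shared with the pseudogene Kif22-ps, so its level is uncertain. Kif4, a chromosome motor that also sets the length of the midzone with Prc1, had 0.0853 and 0.117 FPKM in adult ventricle, against 4.89 and 4.95 FPKM in P0 ventricle (log2 change -2.43 ± 0.24, SE). Kif4 was again clearly separated by age, and it shares much of its sequence with Kif4b, which was listed at or near 0 throughout.

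Of the cytokinesis kinesins, Kif23, the motor subunit of the centralspindlin complex, had 0.354 and 0.411 FPKM in adult ventricle, against 7.93 and 9.86 FPKM in P0 ventricle (log2 change -2.83 ± 0.22, SE, limma adjusted p = 6.6e-07). Kif20a had 0.413 and 0.733 FPKM in adult ventricle, against 13.7 and 11.03 FPKM in P0 ventricle (log2 change -3.09 ± 0.21, SE, limma adjusted p = 1.9e-07). Kif20a kept the highest residual level of the mitotic kinesins in adult ventricle. Kif2c, which depolymerises microtubules at kinetochores, and Kif18b, which shortens astral microtubules, were nearly gone from adult ventricle, at 0.0496 and 0.0164 FPKM and 0.0123 and 0.0265 FPKM, against 4.79 and 4.61 FPKM and 3.08 and 2.60 FPKM in P0 ventricle. The proliferation gene Top2a, a topoisomerase used in chromosome condensation, had 0.500 and 0.509 FPKM in adult ventricle, against 29.9 and 35.6 FPKM in P0 ventricle. Mki67, which codes for the Ki-67 antigen of cycling cells, had 0.243 and 0.196 FPKM in adult ventricle, against 6.40 and 16.2 FPKM in P0 ventricle.

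Markers of other cells moved as well. 4 of 7 fibroblast markers fell and 1 rose, with sums of 377 to 395 FPKM in adult and 697 to 972 FPKM in P0 ventricle, and 2 of 7 endothelial markers fell and 1 rose, with sums of 159 to 165 FPKM and 184 to 223 FPKM. 7 of 8 macrophage and leukocyte markers rose, with sums of 141 to 189 FPKM in adult and 29.9 to 39.0 FPKM in P0 ventricle. 4 of 7 erythroid markers rose, with sums of 3664 to 4241 FPKM in adult and 1237 to 1381 FPKM in P0 ventricle, and 2 of 5 cardiomyocyte markers rose, with sums of 17637 to 18061 FPKM and 15593 to 17413 FPKM. Of all rows, 56.9% were called. Beside that, the shares called were 71.4% of fibroblast, 42.9% of endothelial, 87.5% of macrophage and leukocyte, 57.1% of erythroid and 40% of cardiomyocyte markers. The part of these cells in the fall of the mitotic kinesins was not tested.

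**Figure D2:**
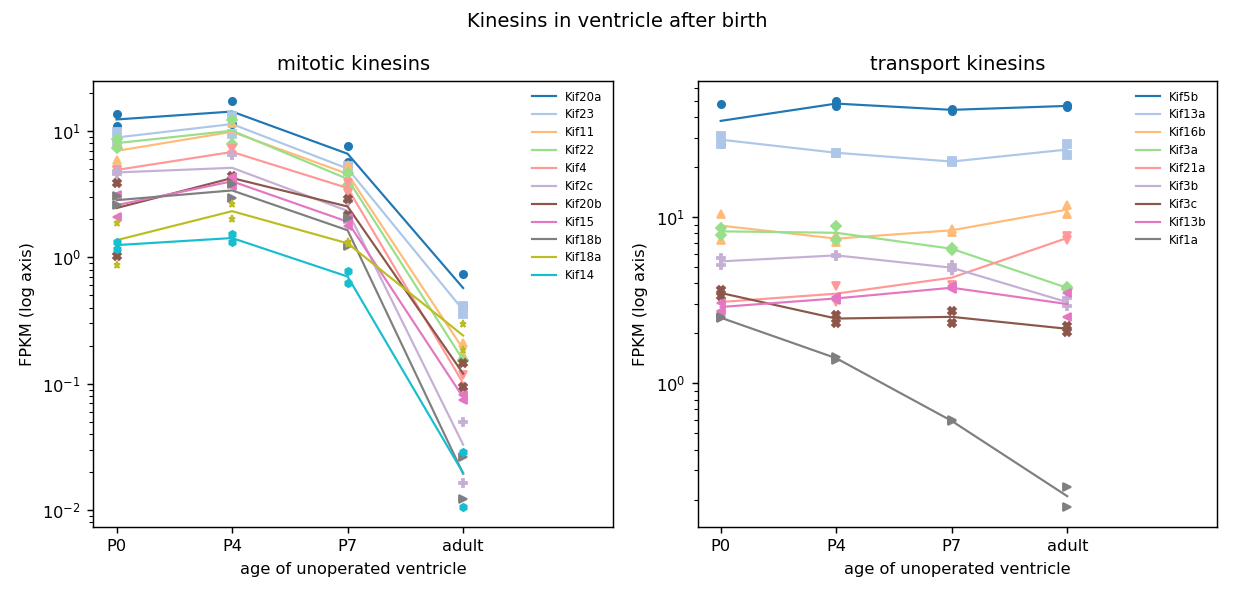
FPKM (log axis) of 11 mitotic kinesins (left) and of the 9 transport kinesins tested (right) in unoperated ventricle at P0, P4, P7 and in adults, with 1 point per library and a line through the group means (n = 2 each). The mitotic lines drop steeply from P7 to adult. Of the transport lines, Kif1a declines at each age, Kif3a, Kif3b and Kif3c are lower in adults than at P0, and Kif21a is highest in adults.

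Among the transport kinesins, Kif21a, a plus-end motor known to restrain microtubule growth, had 7.33 and 7.66 FPKM in adult ventricle, against 2.59 and 3.58 FPKM in P0 ventricle. The groups did not overlap, and Kif21a rose by 1.07 ± 0.16 on the log2 scale (SE, limma adjusted p = 1.4e-04). Kif1a, known as a carrier of synaptic vesicle precursors in neurons, had 0.182 and 0.238 FPKM in adult ventricle, against 2.47 and 2.50 FPKM in P0 ventricle (log2 change -1.53 ± 0.16, SE, limma adjusted p = 6.7e-06). The 8 neuron and Schwann cell markers in the table summed to 6.99 to 7.11 FPKM in adult ventricle and 5.76 to 5.90 FPKM in P0 ventricle, and their part in the change of Kif1a was not tested. The kinesin-2 subunits Kif3a and Kif3b, which form one motor with Kifap3 and drive transport into cilia, had 3.80 and 3.71 FPKM and 2.92 and 3.25 FPKM in adult ventricle, against 7.78 and 8.65 FPKM and 5.68 and 5.16 FPKM in P0 ventricle. Kif3a fell by 0.95 and Kif3b by 0.65 on the log2 scale. Kif5b had 45.9 and 47.3 FPKM in adult ventricle, against 27.6 and 48.1 FPKM in P0 ventricle, where the libraries lay far apart, and its log2 change was 0.34 ± 0.19 (SE, limma adjusted p = 0.14).

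Among the cilium kinesins, Kif7, which carries Hedgehog signals at the tip of the primary cilium, had 0.494 and 0.264 FPKM in adult ventricle, against 1.47 and 1.01 FPKM in P0 ventricle, and fell by 0.70 on the log2 scale (limma adjusted p = 0.0033). Kif6, a kinesin of ependymal cilia, had 1.51 and 0.825 FPKM in adult ventricle, against 0.472 and 0.281 FPKM in P0 ventricle, and rose by 0.64 on the log2 scale (limma adjusted p = 0.025). The 10 motile cilia markers summed to 1.69 to 2.24 FPKM in adult and 1.81 to 2.48 FPKM in P0 ventricle. Of the others, Kif26b, a motor of kidney development and Wnt signalling, had 0.686 and 0.424 FPKM in adult ventricle, against 4.69 and 3.63 FPKM in P0 ventricle, and fell by 1.73 on the log2 scale. Kif26a and Kif2a also fell, with log2 changes of -0.93 and -0.63. With median-of-ratios scaling the median change of all rows moved to 0 and that of the transport kinesins turned to 0.26, Kif2a, Kif3b and Kif3c lost their calls (as with quantile normalization, where Kif7 lost its call too), Kif5b (0.80) and Kif16b (0.73) were called higher, and 4 kinesins were higher and 16 lower. The call of Kif6 was also lost without the filter on low values, in 1 fit over all 36 libraries, without adult replicate 1 (0.41) and without P0 replicate 2 (0.54), and that of Kif26a in 1 fit (adjusted p = 0.19). Kif2a lost its call without the filter and without either adult library or P0 replicate 2, and Kif3c without adult replicate 2 or P0 replicate 1. The 11 mitotic kinesins stayed lower in all alternatives run, with a median of -2.25 under that scaling.

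Adult ventricle set against P7 ventricle gave 18 called kinesins of 25, 1 higher and 17 lower, against 40.6% of all rows called (10.7% higher), and both adult comparisons share the adult libraries. All 11 mitotic kinesins fell, with a median log2 change of -1.68, against 29.8% of all rows called lower. Kif20a had 0.413 and 0.733 FPKM in adult ventricle, against 5.67 and 7.55 FPKM in P7 ventricle (log2 change -2.27 ± 0.21, SE), and Kif11 had 0.209 and 0.167 FPKM, against 3.73 and 5.43 FPKM in P7 ventricle (-2.22 ± 0.20, SE). Kif22 (-2.16), Kif23 (-2.13) and Kif4 (-2.04) followed on the log2 scale, with limma adjusted p of 2.4e-05, 1.8e-05 and 3.9e-05. Kif21a rose (0.68 ± 0.16, SE), with 7.33 and 7.66 FPKM in adult ventricle, against 4.73 and 3.92 FPKM in P7 ventricle. Kif3a, Kif3b, Kif7, Kif2a, Kif26a and Kif26b fell, by log2 changes between -1.25 (Kif26a) and -0.55 (Kif3b), and Kif3a, Kif3b and Kif2a lost their calls under both other scalings. Kif2a also lost it without any 1 of the 4 libraries, without the filter and in 1 fit, Kif7 with quantile normalization and without adult replicate 2 or P7 replicate 1, and Kif26a in 1 fit. With median-of-ratios scaling 3 kinesins were higher and 14 lower. Without P7 replicate 2 the call of Kif21a was lost. Markers of other cells moved as well. 6 of 7 fibroblast markers fell and 0 rose, with sums of 377 to 395 FPKM in adult and 1129 to 1226 FPKM in P7 ventricle, and 4 of 7 endothelial markers fell and 1 rose, with sums of 159 to 165 FPKM and 238 to 265 FPKM. 4 of 8 macrophage and leukocyte markers rose, with sums of 141 to 189 FPKM in adult and 48.0 to 56.3 FPKM in P7 ventricle. Their part in the fall of the mitotic kinesins was not tested.

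The genes that work with mitotic kinesins were also lower in adult ventricle. All 27 spindle and cytokinesis partners tested fell in adult against P0 and against P7 ventricle, beside 43.6% and 29.8% of all rows called lower. Their median log2 changes were -2.90 and -2.37. The 27 genes summed to only 9.17 to 9.92 FPKM in adult ventricle. Those under 1 FPKM in both adult libraries passed the filter through other ventricles, and the list was chosen with earlier results of these data known. On the log2(FPKM + 1) scale the mitotic kinase Cdk1 changed most (-4.15 ± 0.28, SE, against P0). Birc5 (-3.97 ± 0.18, SE), the survivin subunit of the chromosomal passenger complex, followed. Cenpe and Kifc1, in this list, are kinesins themselves that the naming rule does not reach, and they fell by 1.85 and 2.15 on the log2 scale. Of 12 light chains and cargo adaptors of transport kinesins, 4 rose and 2 fell in adult against P0 ventricle, a share of calls (50%) under the 56.9% of all rows. Among them, Rhot2, which links mitochondria to kinesin, rose by 1.02 and the kinesin light chain Klc1 fell by 0.94 on the log2 scale. Of 18 genes of the opposing motor dynein and its partner dynactin, 1 rose (Dynll2, 1.13) and 7 fell, most of all Dynll1 (-1.60), and the share of calls (44.4%) was also under that of all rows.

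Between P4 and P0 ventricle, 0 of 25 kinesins were called by limma, 7 had an unadjusted p under 0.05, and 1.35% of all rows were called (0.58% higher, 0.769% lower). All 11 mitotic estimates were positive, with a median log2 change of 0.31 (0.10 without P4 replicate 2 and 0.52 without P4 replicate 1), and the smallest adjusted p among the kinesins was that of Kif1a (log2 change -0.53 ± 0.16, SE, limma adjusted p = 0.15). Kif11 had 8.20 and 11.5 FPKM in P4 ventricle, against 5.94 and 7.99 FPKM in P0 ventricle, and Kif20b, a motor that acts in late cytokinesis, had 4.12 and 4.37 FPKM in P4 ventricle, against 1.03 and 3.89 FPKM in P0 ventricle. For both genes the P4 libraries lay above the P0 libraries, and the P0 libraries of Kif20b lay far apart. Both P4 libraries lay above both P0 libraries in 5 of 11 mitotic kinesins, beside 18.4% of all rows tested. They lay below them in 0 of 11, beside 27.3% of all rows. Kif20a (11.3 and 17.2 FPKM in P4 and 13.7 and 11.03 FPKM in P0 ventricle) and Kif23 (9.56 and 13.2 FPKM in P4 ventricle, against 7.93 and 9.86 FPKM in P0 ventricle) overlapped, and Kif4 was at 6.41 and 7.25 FPKM in P4 and 4.89 and 4.95 FPKM in P0 ventricle. Kif5b had 46.6 and 49.7 FPKM in P4 ventricle, against 27.6 and 48.1 FPKM in P0 ventricle. Without P0 replicate 2, Kif20b (1.37) and Kif5b (0.78) were called higher at P4.

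By P7, 5 of 25 kinesins differed from P0 ventricle by limma, 1 higher and 4 lower, against 12.6% of all rows called (4.35% higher, 8.21% lower). Kif1a fell, with 0.599 and 0.591 FPKM in P7 ventricle, against 2.47 and 2.50 FPKM in P0 ventricle (log2 change -1.13 ± 0.16, SE, adjusted p = 7.5e-04), and it alone kept its call in all alternatives run. The mitotic kinesins Kif20a and Kif22 fell as well. Kif20a had 5.67 and 7.55 FPKM in P7 ventricle, against 13.7 and 11.03 FPKM in P0 ventricle (log2 change -0.81, adjusted p = 0.023), and Kif22 had 3.74 and 4.62 FPKM in P7 ventricle, against 8.68 and 7.36 FPKM in P0 ventricle (-0.80, adjusted p = 0.043). The other 9 mitotic kinesins were not called, and Kif20b alone among them had a positive estimate (0.16 on the log2 scale). Kif11 (3.73 and 5.43 FPKM in P7 and 5.94 and 7.99 FPKM in P0 ventricle), Kif23 (5.30 and 4.79 FPKM in P7 ventricle, against 7.93 and 9.86 FPKM in P0 ventricle) and Kif4 (3.21 and 3.87 FPKM in P7 ventricle, against 4.89 and 4.95 FPKM in P0 ventricle) were lower in both P7 libraries. Both P7 libraries lay below both P0 libraries in 9 of 11 mitotic kinesins, beside 44.6% of all rows tested. They lay above them in 0 of 11, beside 17.3% of all rows. Of the 27 spindle and cytokinesis partners, 5 fell, among them Birc5 (-0.83 on the log2 scale). Markers of other cells moved too, with 4 of 7 fibroblast and 4 of 7 erythroid markers higher (57.1% each). Fibroblast markers summed to 1129 to 1226 FPKM in P7 and 697 to 972 FPKM in P0 ventricle. Erythroid markers summed to 2872 to 3288 FPKM and 1237 to 1381 FPKM. In addition 1 of 7 endothelial and 1 of 8 macrophage and leukocyte markers rose. Their part in the kinesin values was not tested. Kif26b fell (-0.65, adjusted p = 0.033), Kif6 rose (0.72, adjusted p = 0.0497), and Kif5b, at 44.6 and 43.7 FPKM in P7 and 27.6 and 48.1 FPKM in P0 ventricle, was not called. The count fell to 1 without P7 replicate 1, to 2 without P7 replicate 2 and to 1 without P0 replicate 1, and to 2 with median-of-ratios scaling, both lower.

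At day 1 after surgery, 1 of 25 kinesins, Kif11, rose in resected against sham ventricle, against 10.3% of all rows called and 1.38% called higher (8.88% lower). Kif11 had 7.99 and 8.29 FPKM in resected ventricle, against 4.22 and 4.01 FPKM in sham ventricle. Both resected libraries lay close together and above both sham libraries, and the log2 change was 0.84 ± 0.20 (SE, limma adjusted p = 0.025). All 11 mitotic estimates were positive, with a median log2 change of 0.51 (0.18 without resected replicate 2 and 0.77 without resected replicate 1), beside -0.17 for the 9 transport kinesins (0.015 with median-of-ratios scaling and 0.026 with quantile normalization) and -0.16 for all rows. Kif23 had 4.99 and 9.23 FPKM in resected ventricle, against 4.19 and 3.27 FPKM in sham ventricle, and Kif4 had 3.89 and 7.47 FPKM, against 3.13 and 3.52 FPKM in sham ventricle. Kif20a had 8.13 and 10.5 FPKM in resected ventricle, against 6.07 and 6.66 FPKM in sham ventricle. These 3 genes were separated between the groups but missed the threshold, with limma adjusted p of 0.055 (Kif23), 0.13 (Kif4) and 0.15 (Kif20a). Resected replicate 1 lay lower than replicate 2 in each. Both resected libraries lay above both sham libraries in 9 of 11 mitotic and 1 of 9 transport kinesins, beside 11% of all rows tested. They lay below them in 0 of 11 mitotic and 3 of 9 transport kinesins, beside 39% of all rows. Kif5b had 62.2 and 57.9 FPKM in resected ventricle, against 67.6 and 80.2 FPKM in sham ventricle (log2 change -0.29, adjusted p = 0.35).

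In the same comparison, 5 of 27 spindle and cytokinesis partners rose, led by the kinetochore gene Spc25 (1.15 ± 0.24, SE) and Prc1 (1.08 ± 0.20, SE), the microtubule bundler of the midzone that binds Kif4. Mki67 had 17.7 and 20.1 FPKM in resected ventricle, against 8.89 and 8.76 FPKM in sham ventricle. The call of Kif11 was lost without the filter on low values, in 1 fit over all 36 libraries, and without sham replicate 1, sham replicate 2 or resected replicate 1. Without resected replicate 1, Kif23 (1.12), Kif4 (0.97) and Kif15 (0.81) were called higher instead. Kif15, a spindle motor that can stand in for Kif11, was also called with median-of-ratios scaling (0.71), as was Kif23 (0.90). The 8 macrophage and leukocyte markers summed to 32.7 to 34.3 FPKM in resected and 78.7 to 118 FPKM in sham ventricle, and the 7 endothelial markers to 129 to 169 FPKM and 196 to 197 FPKM. The part of these cells in the kinesin values was not tested.

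At day 7 after surgery, 0 of 25 kinesins were called by limma between resected and sham ventricle, 8 had an unadjusted p under 0.05, and 0.154% of all rows were called (0.147% higher, 0.00699% lower). All 11 mitotic estimates were again positive, with a median log2 change of 0.59, beside 0.12 for transport kinesins (-0.0036 with median-of-ratios scaling and -0.026 with quantile normalization) and 0.11 for all rows. Both resected libraries lay above both sham libraries in 11 of 11 mitotic and 3 of 9 transport kinesins tested, beside 34.2% of all rows tested. Kif23 had 9.28 and 8.48 FPKM in resected ventricle, against 4.73 and 5.41 FPKM in sham ventricle (log2 change 0.70 ± 0.22, SE, limma adjusted p = 0.27). Kif20a had 10.5 and 8.23 FPKM in resected ventricle, against 5.70 and 5.92 FPKM in sham ventricle (0.59, adjusted p = 0.32). Both genes were higher in each resected library than in either sham library, as were Kif11 (8.24 and 6.54 FPKM in resected and 4.92 and 3.51 FPKM in sham ventricle) and Kif4 (7.59 and 4.53 FPKM in resected ventricle, against 3.62 and 3.17 FPKM in sham ventricle). Kif5b overlapped, with 68.0 and 67.8 FPKM in resected and 73.1 and 64.1 FPKM in sham ventricle. Of the 27 spindle and cytokinesis partners, 0 were called, with a median log2 change of 0.58, and Mki67 had 18.0 and 17.0 FPKM in resected ventricle, against 11.7 and 10.4 FPKM in sham ventricle.

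The largest log2 estimate at day 7 was that of Kif6 (0.92 ± 0.22, SE, limma adjusted p = 0.17), with 1.81 and 2.10 FPKM in resected ventricle, against 0.314 and 0.851 FPKM in sham ventricle. The 10 motile cilia markers summed to 4.62 to 5.69 FPKM in resected and 2.68 to 4.13 FPKM in sham ventricle, with Foxj1, the master factor of motile cilia, listed at 0 in all 4 libraries. The 9 lung epithelium markers summed to 105 to 232 FPKM in resected and 6.18 to 30.1 FPKM in sham ventricle, and macrophage and leukocyte markers to 106 to 145 FPKM and 62.8 to 66.3 FPKM. Their part in the kinesin values was not tested. A direct test of whether the effect of resection differed between day 7 and day 1 called 0 of 25 kinesins, with 2 at an unadjusted p under 0.05 and 5.93% of all rows called (5.69% higher, 0.245% lower). Kif6 had the smallest adjusted p in that test, with a difference of 1.00 ± 0.31 on the log2 scale (SE, limma adjusted p = 0.074). Without day 1 resected replicate 2, Kif3b was called, with a difference of 0.59.

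**Figure D3:**
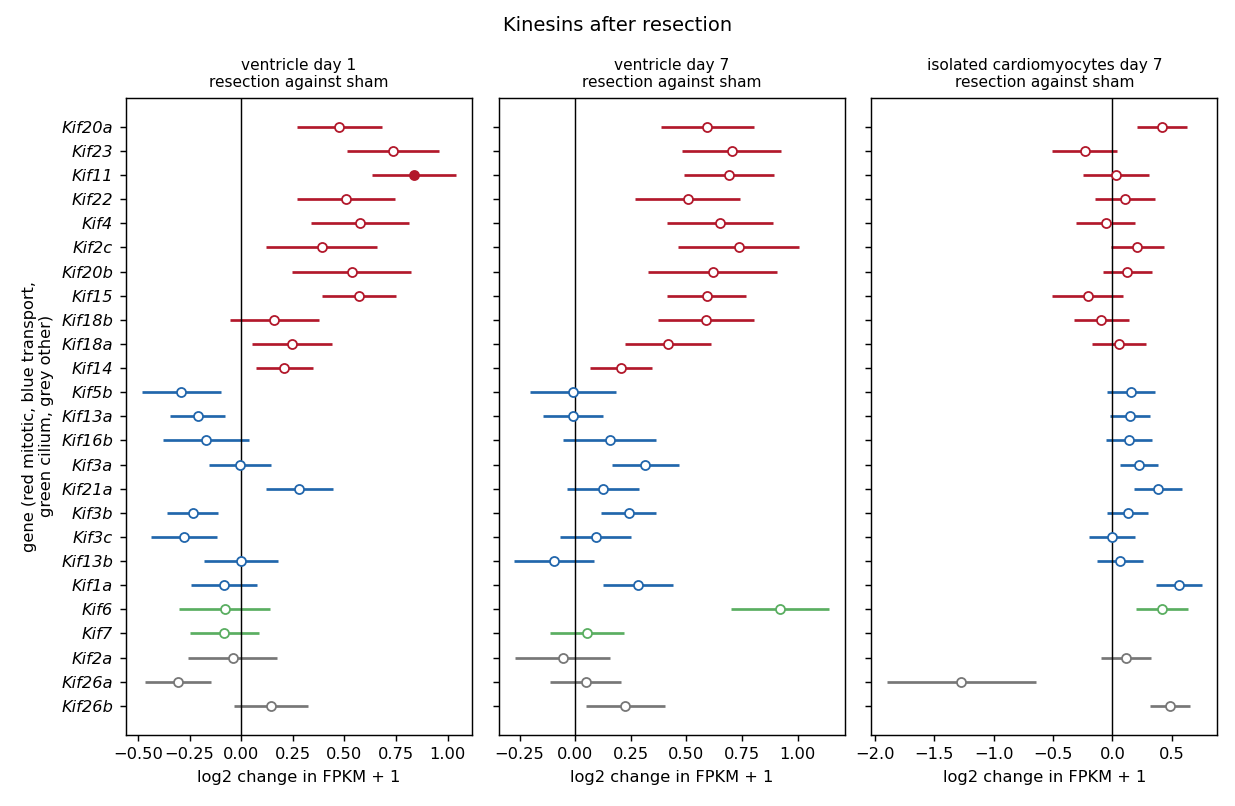
Log2 change of FPKM + 1 in resected against sham samples for each kinesin tested, with bars of 1 SE, in day 1 ventricle, day 7 ventricle and day 7 isolated cardiomyocytes (horizontal axes differ). A filled point marks an adjusted p under 0.05, which Kif11 alone reached, at day 1; the mitotic points lie right of 0 in both ventricle panels and on both sides of 0 in isolated cardiomyocytes.

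In cardiomyocytes isolated on columns, the mitotic kinesins were present at every stage sampled. Their summed level was 39.8 ± 12.3 FPKM at P4 and 27.4 ± 6.39 FPKM at P0 (SD, n = 3 each), and 31.1 ± 4.98 FPKM after resection and 30.3 ± 10.98 FPKM after sham surgery at day 7 (SD, n = 3 each). Between P4 and P0, 0 of 23 kinesins were called by limma, 3 had an unadjusted p under 0.05, and 0.00761% of all rows were called (0.00761% higher, 0% lower). Kif20a had 7.74, 10.4 and 9.73 FPKM at P4, against 4.802, 5.37 and 6.02 FPKM at P0, with no overlap and a log2 change of 0.68 ± 0.21 (SE). All P4 libraries lay above all P0 libraries in 1 of 10 mitotic kinesins tested, beside 6.69% of all rows. They lay below them in 0 of 10, beside 2.57% of all rows. Kif11 had 3.01, 5.17 and 6.85 FPKM at P4, against 3.01, 3.43 and 5.04 FPKM at P0, and Kif23 had 4.29, 5.25 and 8.94 FPKM at P4, against 3.02, 3.89 and 4.72 FPKM at P0. Both genes overlapped between the ages, with the range among P4 libraries wider than the difference of the means. Kif4 (1.85, 3.64 and 3.96 FPKM at P4 and 1.96, 1.56 and 2.99 FPKM at P0) and Kif5b (23.4, 25.8 and 30.0 FPKM at P4, against 20.0, 20.0 and 27.96 FPKM at P0) overlapped as well. The adjusted p was 1 for every kinesin in this comparison, and P0 replicates 1 and 2 were closer to each other than any other pair of replicates of a group, with a median absolute log2 difference of 0.0696. Erythroid markers summed to 376 to 1672 FPKM at P4 and 989 to 21042 FPKM at P0. Endothelial markers summed to 15.5 to 207 FPKM at P4 and 8.82 to 76.6 FPKM at P0. Whether these cells add to the kinesin values was not tested.

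At day 7 after surgery, 0 of 23 kinesins were called in isolated cardiomyocytes from resected against sham hearts, 2 had an unadjusted p under 0.05, and 1.08% of all rows were called (1.07% higher, 0.00761% lower). The 10 mitotic kinesins tested had a median log2 change of 0.043, 6 of them positive, and this median turned to -0.10 with median-of-ratios scaling. Kif11 had 3.22, 5.36 and 3.89 FPKM after resection, against 3.05, 3.37 and 5.98 FPKM after sham surgery, and Kif23 had 4.17, 6.31 and 3.20 FPKM, against 4.79, 4.303 and 7.37 FPKM after sham surgery. Neither gene was separated between the groups, and sham replicate 3 was the highest library for both. Kif20a had 6.17, 6.35 and 7.18 FPKM after resection, against 3.79, 3.63 and 7.19 FPKM after sham surgery (log2 change 0.42 ± 0.21, SE, limma adjusted p = 0.44), and without sham replicate 3 it was called higher (0.68). Kif4 (2.70, 3.41 and 2.44 FPKM after resection and 2.14, 3.03 and 3.99 FPKM after sham surgery) and Kif5b (21.8, 27.1 and 23.3 FPKM after resection, against 19.6, 17.9 and 27.9 FPKM after sham surgery) overlapped. The neuronal carrier Kif1a was separated, at 1.58, 1.10 and 2.16 FPKM after resection and 0.688, 0.600 and 0.968 FPKM after sham surgery, with a limma adjusted p of 0.22. All resected libraries lay above all sham libraries in 1 of 9 transport kinesins tested, beside 8.62% of all rows. They lay below them in 0 of 9, beside 1.83% of all rows.

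Whether the day 7 effect of resection differed between isolated cardiomyocytes and ventricle was tested directly, over all 36 libraries. Of 25 kinesins, 0 were called, 3 had an unadjusted p under 0.05, and 0.0735% of all rows were called (0.0401% higher, 0.0334% lower). The estimate was below 0, meaning a smaller effect in isolated cardiomyocytes, for all 11 mitotic kinesins, with a median difference of -0.52 on the log2 scale, and for 4 of 9 transport kinesins. Kif23 had the largest difference of the mitotic kinesins, -0.94 ± 0.36 (SE, limma adjusted p = 0.5). Lung epithelium markers summed to 189 to 1214 FPKM in isolated cells after resection and 0.881 to 3.69 FPKM after sham surgery, fibroblast markers to 805 to 1976 FPKM and 159 to 974 FPKM, and erythroid markers to 4952 to 72171 FPKM and 3746 to 5274 FPKM. The part of these cells in the kinesin values was not tested.

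Kif26a, an unusual kinesin whose motor domain lacks ATPase activity and which is known from enteric nerve development, had the widest ratio of highest to lowest replicate in isolated cardiomyocytes, among members that passed 1 FPKM in the group. It had 3.50, 8.97 and 0.252 FPKM after resection and 7.68, 8.003 and 9.14 FPKM after sham surgery at day 7, and the summed endothelial markers in the same libraries were 122, 336 and 14.6 FPKM and 374, 395 and 351 FPKM. It had 2.03, 0.428 and 4.67 FPKM at P4 and 0.463, 0.365 and 1.82 FPKM at P0, with endothelial sums of 93.9, 15.5 and 207 FPKM and 13.0, 8.82 and 76.6 FPKM. The 4 libraries under 1 FPKM of Kif26a were the 4 with the lowest endothelial sums, 15.5 FPKM or less. Its log2 change was -1.27 ± 0.63 after resection against sham (SE, limma adjusted p = 0.42), and the part of endothelial cells in it was not tested. In ventricle, Kif26a ran from 2.42 ± 0.502 FPKM at day 1 after resection to 9.08 ± 1.11 FPKM at P7 (SD, n = 2 each), and it fell to 3.57 and 2.92 FPKM in adults, against 8.04 and 6.203 FPKM at P0. In adult explants it was at or below 0.506 FPKM at every time.

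**Figure D4:**
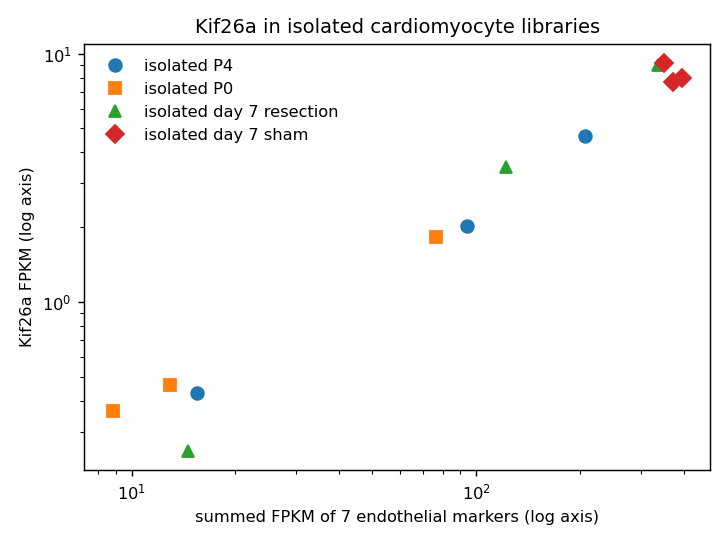
FPKM of Kif26a against the summed FPKM of 7 endothelial markers in the 12 isolated cardiomyocyte libraries, both on log axes, with 1 point per library and 4 groups. The 4 libraries lowest in endothelial transcripts are the 4 lowest in Kif26a, across a range of 0.252 to 9.14 FPKM of Kif26a.

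In cultured adult cardiomyocytes the kinesin-2 subunits Kif3b and Kif3c were higher at 48 and 72 h than at 0 h in all alternatives run, while 9 of 11 mitotic kinesins were too low to test at any time. Against 0 h, 5 of the 11 kinesins tested (Kif3b, Kif3c, Kif5b, Kif21a and Kif2a) were called higher at 24 h by limma, against 17.9% of all rows called and 15.4% called higher (2.55% lower). All 5 calls at 24 h were lost when any of the 4 libraries of that comparison was left out, and 1 (Kif3b) remained with median-of-ratios scaling and 2 with quantile normalization. At 48 h 6 of 11 rose, against 42.2% of all rows called (35% higher, 7.18% lower), and at 72 h 8 of 11 were called higher, against 55.8% called (46.8% higher, 9.07% lower). Of these 8, the mitotic Kif20a and Kif22 entered the test only through their 72 h libraries, and the rest are 6 of 9. The 3 comparisons share the 0 h libraries, and the median log2 change of all rows was itself 0.37 at 24 h, 0.59 at 48 h and 0.76 at 72 h. The 8 transport kinesins tested had medians of 0.69 at 24 h, 0.78 at 48 h and 0.89 at 72 h, close to all rows by 72 h. With median-of-ratios scaling 3 kinesins were higher and 1 lower at 48 h, the transport median at 72 h was 0.037, and 3 kinesins stayed higher while 1, Kif13a, was called lower (-1.22).

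Kif3b, Kif2a and Kif3c rose most. Kif3b had 1.60 and 1.77 FPKM at 0 h, 5.25 and 5.70 FPKM at 24 h, 8.56 and 8.12 FPKM at 48 h and 9.67 and 10.3 FPKM at 72 h. The times did not overlap, and Kif3b was 2.03 ± 0.19 higher at 72 h than at 0 h on the log2 scale (SE, limma adjusted p = 5.4e-04). Kif3c, another partner of Kif3a, had 1.62 and 1.00 FPKM at 0 h, 3.39 and 2.81 FPKM at 24 h, 5.51 and 4.29 FPKM at 48 h and 5.93 and 5.89 FPKM at 72 h (log2 change 1.59 ± 0.24 at 72 h, SE). Kif3a had 2.96 and 2.20 FPKM at 0 h and 6.37 and 7.79 FPKM at 72 h, with values between these at 24 and 48 h. It was called at 48 h (0.85) and 72 h (1.18), but not at 24 h. Both calls were lost under both other scalings, at 48 h with 0.29 by median-of-ratios and 0.25 by quantile normalization and at 72 h with 0.44 and 0.41, and the 48 h call also without either 48 h library or 0 h replicate 2. Kif2a, which shortens microtubules from their ends, had 4.76 and 4.50 FPKM at 0 h, 9.26 and 11.02 FPKM at 24 h, 13.1 and 13.9 FPKM at 48 h and 16.1 and 19.3 FPKM at 72 h (log2 change 1.73 ± 0.21 at 72 h, SE). Kif3b, Kif3c and Kif2a kept their 72 h calls in all alternatives run.

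Kif5b had 45.9 and 46.9 FPKM at 0 h, 88.0 and 96.8 FPKM at 24 h, 112 and 106 FPKM at 48 h and 88.5 and 98.0 FPKM at 72 h, the highest levels of any member in the series. Its log2 change was 0.98 ± 0.18 at 24 h and 0.99 ± 0.18 at 72 h (SE), and the 72 h change was 0.081 with median-of-ratios scaling and 0.57 with quantile normalization, neither called. Kif21a had 7.66 and 7.89 FPKM at 0 h, 17.7 and 16.1 FPKM at 24 h, 11.7 and 15.03 FPKM at 48 h and 12.1 and 16.7 FPKM at 72 h, so that it was highest at 24 h. Its 72 h change of 0.80 turned to -0.045 with median-of-ratios scaling and to -0.0054 with quantile normalization, neither called, and its 72 h call was also lost without 72 h replicate 2 or either 0 h library. Kif13a, a carrier to endosomes, was not called at any time and had 19.2 and 16.8 FPKM at 0 h and 12.04 and 15.8 FPKM at 72 h. Kif16b, which moves early endosomes, had 8.64 and 18.4 FPKM at 0 h and 15.1 and 16.6 FPKM at 72 h, with the 0 h libraries far apart, and was not called.

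**Figure D5:**
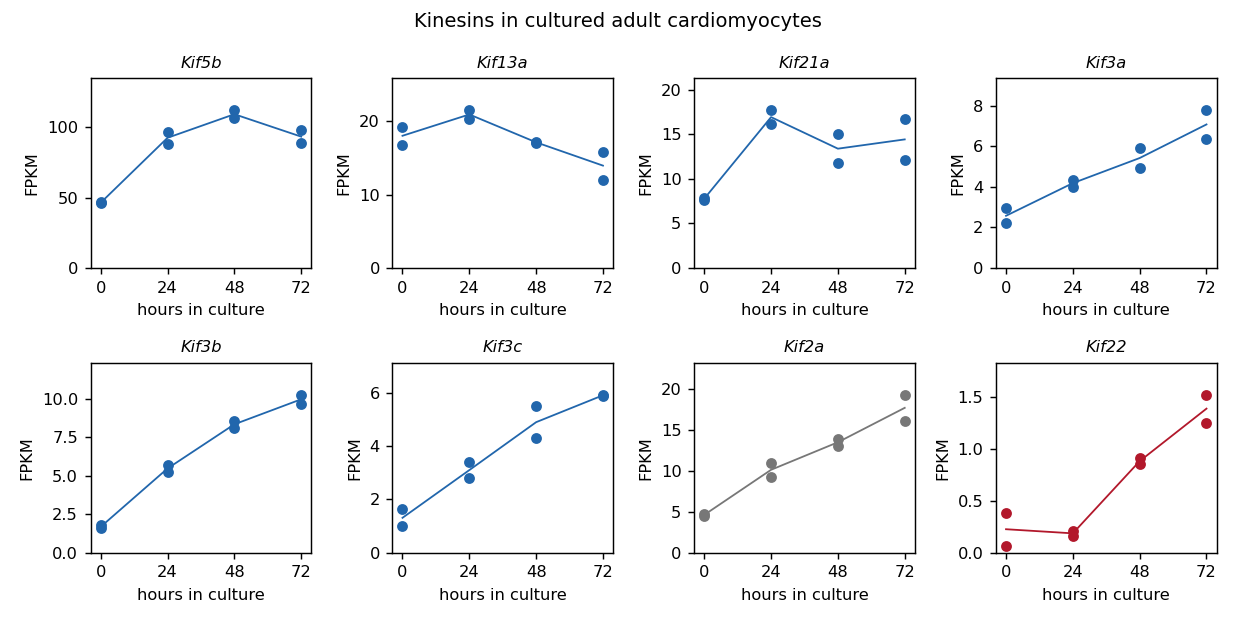
FPKM of 8 kinesins in cultured adult cardiomyocytes at 0, 24, 48 and 72 h, with 1 point per library (n = 2 per time) and a line through the means; vertical axes start at 0 and differ between panels. Kif3b, Kif3c, Kif3a and Kif2a climb through 72 h, Kif5b and Kif21a are highest at 48 h and 24 h, Kif13a ends below its 0 h level, and the mitotic Kif22 stays below 2 FPKM.

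Of the mitotic kinesins, Kif20a and Kif22 passed the filter on low values in explants through their 72 h libraries alone, so their 72 h calls support nothing and their values are given as a description. The other 9 did not pass. Kif22 had 0.387 and 0.0682 FPKM at 0 h, 0.209 and 0.166 FPKM at 24 h, 0.858 and 0.910 FPKM at 48 h and 1.52 and 1.26 FPKM at 72 h. Kif20a had 0.411 and 0.339 FPKM at 0 h, 0.414 and 0.415 FPKM at 24 h, 0.696 and 0.390 FPKM at 48 h and 1.04 and 1.11 FPKM at 72 h. Each of the 6 libraries from 0 to 48 h was below 1 FPKM for both genes. At 72 h Kif11 stood at 0.127 and 0.324 FPKM, Kif23 at 0.537 and 0.325 FPKM and Kif4 at 0 and 0.290 FPKM, all below 1 FPKM and untested. The summed mitotic level was 4.48 and 6.10 FPKM at 72 h, below the 30.7 and 38.1 FPKM of P7 ventricle, a value set across preparations without a test.

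Of 27 spindle and cytokinesis partners 8 passed the filter in explants, 5 of them (Birc5, Ccnb2, Racgap1, Spc25 and Tpx2) only with their 72 h libraries counted, and none of the other 3 (Incenp, Mad2l1 and Spc24) was called at 72 h. Of 11 light chains and adaptors, 4 rose and 1 fell at 72 h (45.5% called, against 55.8% of all rows), with Klc1 at 1.63 and Rhot2 at -1.26 on the log2 scale. Both genes thus moved opposite to their change in adult against P0 ventricle. Of 18 dynein and dynactin genes, 12 rose and 1 fell at 72 h (72.2% called, against the same 55.8%). The largest rises were in Dync1li2 (1.82), a light intermediate chain, and Dync1i2 (1.33), an intermediate chain. The median log2 change of the 18 genes was 0.90, beside 0.76 for all rows, and the other scalings were not examined for this list. The 5 cardiomyocyte markers summed to 15065 to 19725 FPKM at 0 h and 2558 to 2799 FPKM at 72 h, and the 8 macrophage and leukocyte markers to 1.75 to 2.43 FPKM and 83.6 to 137 FPKM. Their part in the kinesin values was not tested.

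The 9 members under 1 FPKM in every library were not tested. The neuronal transport motors Kif21b, Kif5a and Kif17 had means of 0.323, 0.141 and 0.0673 FPKM over the 36 libraries. Kif21b was highest in P4 ventricle (0.660 and 0.740 FPKM), Kif5a in explants at 72 h (0.478 and 0.739 FPKM, against 0.266 and 0.0734 FPKM at 0 h), and Kif17 in explants at 72 h (0.235 and 0.167 FPKM). The motile cilium kinesins Kif9, Kif27 and Kif19a had means of 0.174, 0.115 and 0.0891 FPKM. Kif12, known from kidney, was listed at 0 in all but 2 libraries, Kif4b had a mean of 0.00224 FPKM, and Kif2b, a kinetochore depolymerase in human cells, was listed at 0 in all 36 libraries. Their genes lie, in mm9 coordinates, at chromosome 4 from 62826667 to 62833165 for Kif12, chromosome 12 from 102383823 to 102387492 for Kif4b and chromosome 11 from 91436628 to 91438923 for Kif2b.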

How the data were processed

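RNA was measured by sequencing in 36 libraries of 16 groups, and the deposited values are FPKM per gene model, as made by the authors. The submitters' processing notes name Bowtie 0.12.7, TopHat 1.3.2, Cufflinks 1.2.1, Cuffdiff and the build mm9, without a role for each. Strand handling and read depth are not given in the sources used here, and FPKM without counts gives no counting interval. Each library was assigned to its group from the labels.

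Changes were tested with limma 3.58.1 in R 4.3.3 (empirical Bayes with a mean trend, two-sided) on log2(FPKM + 1), which understates the change of low genes. Rows with at least 1 FPKM in at least 2 libraries of a fit were kept, fits were made within ventricle, isolated or explant libraries (all 36 for the difference between preparations), and Benjamini-Hochberg adjustment ran over all rows tested, with calls at 0.05. The members, classes and gene lists were chosen with earlier results of these data known. Every kinesin could be named. Values per library were given for up to 4 called members of each class with the largest change, and always for Kif11, Kif20a, Kif23, Kif4 and Kif5b. Up to 2 called partner genes per list were named, and Cenpe and Kifc1 were added as kinesins after their values were seen.

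Promoter windows came from RefSeq (GRCm38.p6) and were matched by symbol, with 27 of 34 members used. Member windows on chromosome 18, where Kif20a and Kif5b lie, were left out, while the shares over all genes kept that chromosome. They were not mixed with the mm9 coordinates of the expression table. Alternatives were another pseudocount (0.1), no filter, 2 other scalings, the replicate block, 1 fit over all libraries, summed rows of a symbol, and leaving out each replicate. After the data were seen, 1 row per symbol and an average of isolated P0 replicates 1 and 2 were added. The test was also tried on simulated data. Figures were drawn with Python 3.11.15 and Matplotlib 3.10.9.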

Additional observations from a re-analysis of the deposited data

How the results depend on the processing

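The fall of all 11 mitotic kinesins in adult ventricle held under every alternative run, against P0 and against P7. The number of kinesins called at P7 against P0 (5) was 3 with a pseudocount of 0.1, 1 without the filter on low values, 2 with median-of-ratios scaling and 2 in 1 fit over all 36 libraries. At day 1 after resection (1) it was 0 without the filter, 3 with median-of-ratios scaling, 4 with quantile normalization and 0 in 1 fit. In isolated cardiomyocytes at day 7 (0) it was 1 in 1 fit (Kif1a, 0.56). In explants at 24 h (5) it was 3 without the filter, 1 with median-of-ratios scaling and 2 with quantile normalization, and at 48 h (6) it was 3 with quantile normalization and 4 with median-of-ratios scaling, 3 higher and 1 lower. At 72 h (8) it was 14 without the filter (13 higher, 1 lower), 15 in 1 fit (13 higher, 2 lower), and 4 with either other scaling (3 higher, 1 lower). Dropping the filter or fitting all libraries lets in members that the explant filter keeps out, and the cause of the other differences was not tested. The change of Kif21a at 72 h turned to -0.045 with median-of-ratios scaling and -0.0054 with quantile normalization.

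Leaving out each replicate gave 0 to 2 calls at P4, 1 to 5 at P7, 19 to 20 for adult against P0, 16 to 17 for adult against P7, 0 to 3 at day 1 and 0 to 0 at day 7 after resection. It gave 0 to 0 for isolated P4 against P0, 0 to 1 for isolated day 7, 0 to 0 at 24 h, 4 to 5 at 48 h and 5 to 6 at 72 h. It gave 0 to 1 for the difference between days and 0 to 0 for the difference between preparations. With 1 library left in a group, that library is assumed to vary like the other groups.

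With the replicate number as a block, the calls were 0 at P4, 5 at P7, 21 for adult against P0, 17 for adult against P7 (without Kif2a), 1 at day 1, 0 at day 7, 0 and 0 in isolated cells, 0 and 0 for both differences, and 5, 7 and 9 in explants at 24, 48 and 72 h. Same-numbered libraries deviated together, with a correlation over 0.1, in 2 of 28 pairs of groups in ventricle, in 6 of 18 pairs of libraries in isolated cells, and in 6 of 6 pairs of times in explants (0.385 to 0.617), but with 2 libraries in a group their deviations mirror each other and each pair gives 1 value. Negative correlations were as strong in isolated cells, where the values ran from -0.580 to 0.421, and in ventricle they ran from -0.135 to 0.182. The labels give no pairing, and the main tests did not pair libraries. In explants, where every pair of times correlated, whether same-numbered libraries share an origin is not stated. The main tests there left this correlation out. In explants the block added Kif22 at 48 h (0.63) and Kif13b at 72 h (0.59) and changed no other call. Over single genes, 446 values kept direction and side of the threshold across other settings, 64 lost the call and 2 reversed, and leaving out a replicate gave 189, 63 and 0. These tallies cover only kinesins called in the main test, and leave out calls gained and cases where the kinesin was no longer tested. The replicate block, summed rows and 1 row per symbol left the class medians as they were, so agreement there says little. With 2 or 3 libraries a group and no counts, small changes and members under 1 FPKM could not be assessed.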
